A study of Mus musculus with 24 samples.

Results

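The 10 genes described here encode chemokines and cytokines of the intestinal epithelium and were followed through sorted cells of 4 regions of the mouse gut. They were picked by name and function, with earlier results of these data known, and were *Ccl6*, *Ccl9*, *Ccl20*, *Ccl25*, *Ccl28*, *Cxcl16*, *Cx3cl1*, *Il18*, *Il33* and *Tnfsf10*, or 10 of the 53465 genes in the count table. All 10 passed the filter on low counts and were among the 15044 genes tested, although *Ccl20* had at most 24 counts in any library and *Il33* at most 82. The cells came from Guca2a-Venus mice, which carry a bacterial artificial chromosome in which the fluorescent protein Venus replaces the coding sequence of guanylin (*Guca2a*). Venus therefore follows the guanylin promoter of that construct, the line descends from 1 founder, and every library, control cells included, comes from mice with the transgene. Epithelium of the duodenum, jejunum, ileum or colon (with rectum) was dissociated and sorted into Venus-positive and Venus-negative cells, after dead cells, particles without a nucleus and CD45-positive immune cells had been gated out. No treatment was given, and age and sex are not given in the sources used here. Each of the 8 groups had 3 libraries. The paper states that 3 mice were used for each region, with both fractions sorted from the same tissue. The labels do not name the animal of a library, so positive and negative cells were not paired by animal. The fit treated all libraries as independent, and p values measure the spread between libraries. The question put to the data was how these genes differ between Venus-positive and Venus-negative cells, and along the gut.

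Chemokines are small secreted proteins that draw leukocytes along a gradient by way of receptors on those cells, and the gut epithelium uses them to place lymphocytes, dendritic cells and macrophages in and under the epithelial sheet. CCL25 and CCL28 are the classic homing signals for gut T cells and IgA plasma cells. CXCL16 and CX3CL1 are made as membrane-anchored proteins and shed by ADAM proteases. IL-18 and IL-33 belong to the IL-1 family, lack a signal peptide, and act once a cell has processed or released them. TNFSF10 (TRAIL) is a death ligand of the TNF family.

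Library depth ran from 7458616 to 23063124 gene counts, of which mitochondrial genes took 32.3% to 80.7%. This share was lower in positive than in negative libraries, without overlap, in the duodenum (32.3% to 46.6% against 64.6% to 76.4%), the jejunum (47.1% to 60.6% against 61.2% to 78.8%) and the ileum (41.0% to 55.4% against 64.7% to 70.9%), whereas the colon overlapped (68.6% to 77.9% against 65.3% to 80.7%). Its part in the differences between fractions was not tested beyond a fit on protein-coding genes outside the mitochondrial genome. Levels are given as CPM, read counts scaled by library size and TMM factors, and 3 counts, taken as the limit of detection, equalled 0.106 to 0.360 CPM, which covers counting error only. A gene is said to pass where the quasi-likelihood test of edgeR, adjusted by Benjamini-Hochberg over the 15044 genes, gave an adjusted p below 0.05. Of 40 comparisons of positive with negative cells (10 genes in 4 regions), 23 passed, 18 with higher and 5 with lower levels in positive cells. In the duodenum 5 of the 10 genes were higher and 2 lower in positive cells, where 8.88% and 8.08% of all genes tested were. The jejunum had 4 higher and 2 lower (18.3% and 25.6% of all genes). The ileum had 6 higher and 1 lower (17.9% and 20.6%). The colon had 3 higher and 0 lower (9.31% and 3.8%). Its count of called genes was 1 without positive replicate 2, without negative replicate 2, or with the compared libraries fitted alone. By DESeq2 3 of the 10 were also called in the colon, and 4 had an unadjusted p below 0.05 in edgeR. The median log2 fold change of the 10 genes was 1.17, 0.65, 1.59 and 0.10 in the duodenum, jejunum, ileum and colon, against −0.16, −0.28, −0.27 and 0.0 for all genes. In bulk libraries such as these, fewer cells of a type and less RNA per cell cannot be told apart.

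**Figure D1:**
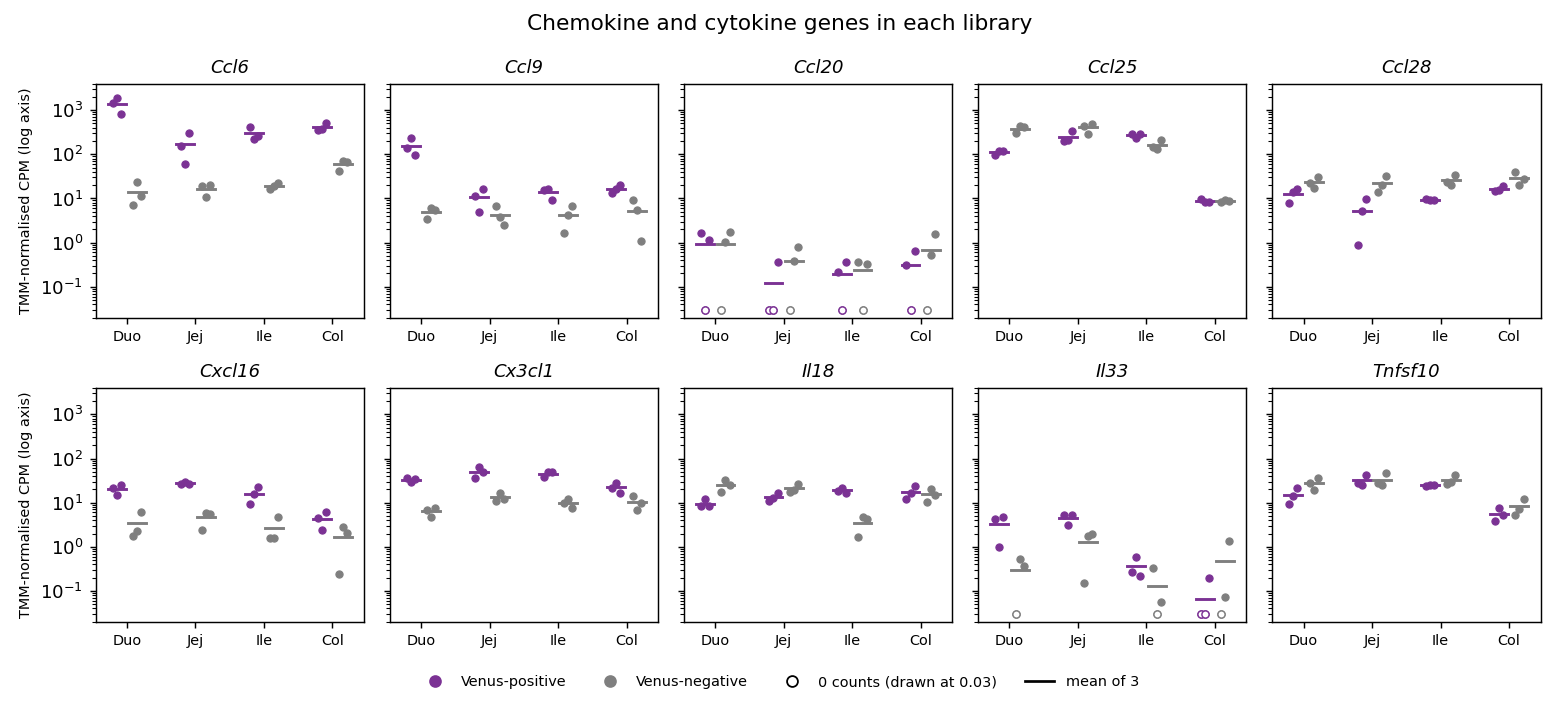
Each dot is 1 library, the vertical log axis is TMM-normalised CPM, the horizontal axis is the region (Duo, duodenum; Jej, jejunum; Ile, ileum; Col, colon), purple is Venus-positive and grey Venus-negative, bars are means of 3 libraries, and open circles at the bottom are libraries with 0 counts. Ccl6 in positive cells of the duodenum, at 827 to 1880 CPM, lies above every other gene and group, and Ccl20 and Il33 are the genes with libraries at 0 counts.

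The sorted fractions differ in cell types, and this frames every value below. The 8 goblet cell markers were all higher in positive cells of every region, with medians of 6.84, 3.32, 4.24 and 1.93 on the log2 scale from duodenum to colon. The 7 Paneth cell markers were all higher in positive cells of the small intestine, and none passed in the colon. Of 9 enterocyte markers 2 were higher in the duodenum and 6 in the colon, whereas jejunal and ileal positive cells had all 9 higher. All 6 colonocyte markers were higher in colonic positive cells (median 2.82). Here and in the counts below, the colonocyte list includes *Guca2a*, whose promoter drives Venus. Its higher level in positive cells was therefore fixed in advance by the sort. From duodenum to colon, 3, 5, 5 and 0 of 5 tested tuft cell markers were lower in positive cells. Of 8 enteroendocrine markers 8, 8, 7 and 5 fell in positive cells from duodenum to colon, and of 7 stem and proliferation markers 2, 7, 7 and 3. The part of these differences in the results below was not tested.

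*Ccl6* and *Ccl9* encode CC chemokines that act through CCR1 and that, outside the gut, are best known from myeloid cells. By mean level per kilobase of exon, *Ccl6* was the most abundant of the 10 genes in positive cells of every region. In the jejunum its range overlapped that of *Ccl25* (34.1 to 169 against 27.0 to 45.5 CPM per kilobase). The order there depends on the exon lengths used, 1795 bases for *Ccl6* and 7445 for *Ccl25*. Without that scaling the jejunal mean of *Ccl25* was the higher (249 against 173 CPM). It lies on chromosome 11 (chr11:83587882-83593087, minus strand, GRCm38, GENCODE M21 annotation), and *Ccl9* follows it on the same strand (chr11:83572919-83578636) after 9245 bases. In the duodenum *Ccl6* was at 1466, 1880 and 827 CPM in the 3 positive libraries and at 7.16, 23.1 and 11.6 CPM in the negative ones. Every positive library exceeded every negative one by a wide margin. The means were 1391 ± 531 and 14.0 ± 8.25 CPM (SD, n = 3), which makes a 99.4-fold difference (log2 fold change 6.64, standard error 0.55, adjusted p = 4.78e-10, edgeR).

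Jejunal *Ccl6* was at 154, 61.1 and 303 CPM in positive and 18.7, 10.9 and 19.8 CPM in negative libraries. In the ileum the values were 425, 225 and 254 against 16.1, 18.8 and 22.0 CPM. Colonic positive libraries held 360, 376 and 500.6 CPM and negative ones 41.6, 70.8 and 65.7 CPM. The groups did not overlap in any region, and the negative cells of the colon were the highest of the negative groups. The log2 fold changes were 3.39, 3.99 and 2.79 (standard errors 0.47, 0.49 and 0.46, largest adjusted p 0.000104, edgeR). With a library left out, the jejunal value ranged from 2.70 to 3.88 and passed each time. The duodenal log2 fold change exceeded the mean of jejunum and ileum by 2.95 (SE 0.55, adjusted p = 0.000357, edgeR interaction contrast), where 17.5% of all genes passed that contrast. The small intestine exceeded the colon by 1.88 (adjusted p = 0.0304, edgeR; 4.13% of all genes), which did not pass without positive replicate 1, 2 or 3 or negative replicate 2 or 3 of the colon (1.78, 1.92, 2.03, 1.86 and 1.79, adjusted p between 0.0576 and 0.0917).

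*Ccl9* was likewise highest in positive cells of the duodenum. In the duodenum its positive libraries held 136, 235 and 97.8 CPM and its negative libraries 3.51, 6.03 and 5.34 CPM. The groups lay far apart, with a 31.4-fold difference (log2 fold change 4.97, standard error 0.58, adjusted p = 2.43e-07, edgeR). Beyond the duodenum the gene was scarce in both fractions. Jejunal positive libraries held 11.2, 4.96 and 16.5 CPM and overlapped the negative ones at 6.68, 3.73 and 2.48 CPM (log2 fold change 1.35, adjusted p = 0.0349, edgeR). The ileum held 15.5, 16.4 and 9.41 CPM against 1.61, 4.30 and 6.60 (1.73, adjusted p = 0.00799), and the colon 13.4, 16.1 and 20.6 CPM against 9.23, 5.49 and 1.11 (1.69, adjusted p = 0.0287). Neither of these pairs of groups overlapped. The duodenal difference exceeded that of jejunum and ileum by 3.43 (standard error 0.63, adjusted p = 0.000343, edgeR interaction contrast).

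The *Ccl9* calls outside the duodenum rested on few libraries. The jejunal call was lost without positive replicate 1 or 3 or negative replicate 2 or 3 (log2 fold changes of 1.32, 0.92, 1.26 and 1.07). The ileal call was lost without negative replicate 1 (1.34, adjusted p = 0.0559, edgeR). In the colon it was lost without positive replicate 2 or 3 or negative replicate 2 or 3 (1.69, 1.52, 1.70 and 1.21) and when the compared libraries were fitted alone (1.56, adjusted p = 0.0667, edgeR).

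Leukocyte transcripts were measured because *Ccl6* and *Ccl9* are also myeloid genes. The summed level of 14 leukocyte markers was 10.6 to 32.5 CPM in positive and 2.17 to 6.29 CPM in negative cells of the duodenum, and of the 9 markers tested 1 was higher in positive cells there. *Lyz2*, a lysozyme gene closely related to the Paneth gene *Lyz1* and so uncertain in its counts, made up 9.004 to 29.1 CPM of the positive sums. *Csf1r*, *Itgax* and *Adgre1*, which define macrophages and dendritic cells, had 0 counts in all duodenal libraries, and *Ptprc* (CD45) had at most 2 counts in a positive one. In the other regions the sums were 2.40 to 14.4 CPM in positive and 2.20 to 13.4 CPM in negative cells. *Adgre1* had 0 counts there too, whereas *Csf1r* had 4, 5 and 3 counts in positive and 0 in negative libraries of the colon, and at most 9 counts in a jejunal and 4 in an ileal positive library. *Itgax* reached 17 counts in an ileal positive and 19 in a jejunal negative library. *Ptprc* reached 11, 73 and 32 counts in positive and 40, 97 and 14 in negative libraries of jejunum, ileum and colon. The part of leukocyte RNA in the *Ccl6* and *Ccl9* differences was not tested in any region, the duodenum included.

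The genes nearest in pattern to the 2 neighbours over the 24 libraries included goblet cell markers. Only the 2 nearest genes of each were kept, so likeness to Paneth cell markers is not given. *Ccl6* was most like *Spink4* (Pearson r = 0.98 of log2 CPM over 24 libraries) and *Muc2* (r = 0.97), which are goblet markers, and *Ccl9* was most like *Ano7* (r = 0.94) and *Fcgbp* (r = 0.91), another goblet marker. Between *Ccl6* and *Ccl9* r was 0.84. These values are descriptions, since the libraries share groups and depth. The authors measured *Ccl9* as an M cell marker by RT-qPCR. Of 5 tested markers of follicle-associated epithelium and M cells, 0, 0, 2 and 0 were higher in positive cells from duodenum to colon. In the same order 1, 1, 2 and 1 were lower. Their part in the *Ccl9* differences was not tested.

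**Figure D2:**
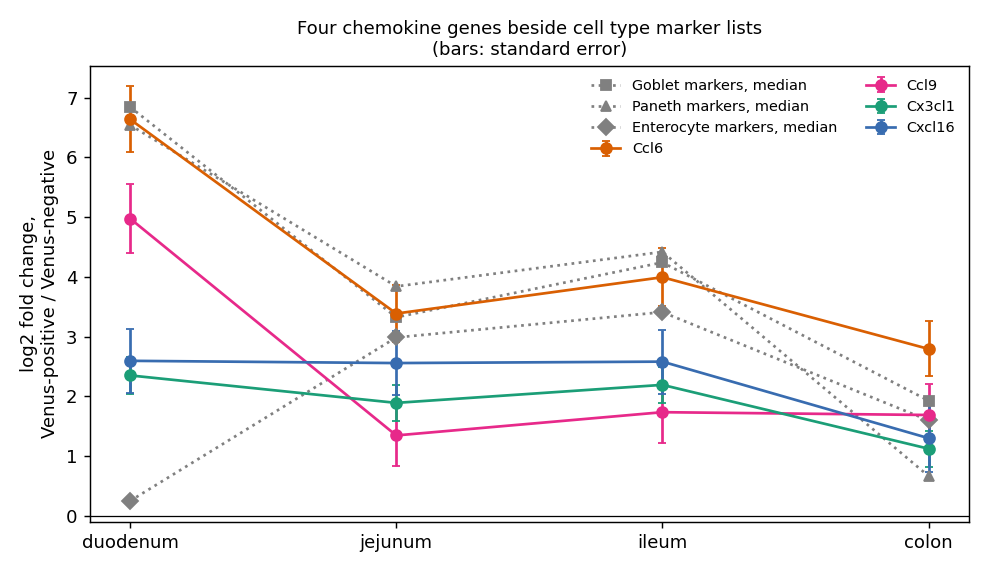
The vertical axis is the log2 fold change of Venus-positive over Venus-negative cells and the horizontal axis the region. Coloured points with standard errors are Ccl6, Ccl9, Cx3cl1 and Cxcl16, and grey symbols are medians of 8 goblet, 7 Paneth and 9 enterocyte markers. Ccl6 lies close to the goblet and Paneth medians in the small intestine (6.64 against 6.84 and 6.54 in the duodenum), whereas Cx3cl1 and Cxcl16 are nearly level there.

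The promoters of *Ccl6* and *Ccl9* are shown because the genes are neighbours and were both called in every region. Among promoter windows of the members from RefSeq (GRCm38.p6, 250 bases before to 50 after the start, 11 windows for 9 members, none held for *Cxcl16*), this pair had the most alike 30-base stretch without gaps, with 27 of 30 bases the same, against at most 21 of 30 in any other of the 53 pairs of windows. Both stretches lie on the minus strand of chromosome 11, at chr11:83593083-83593112 for *Ccl6* and chr11:83578598-83578627 for *Ccl9*. Capitals mark bases that are the same in both.
Ccl6: TGTTCCCTCTtTTAGAACTAGCcTGTTGtG
Ccl9: TGTTCCCTCTcTTAGAACTAGCaTGTTGgG
The stretch spans positions −25 to 4 in *Ccl6* and 9 to 38 in *Ccl9*, with the annotated first base as 0.

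*Cx3cl1* and *Cxcl16* encode the membrane-anchored chemokines, ligands of CX3CR1 and CXCR6. Both had higher levels in the positive fraction of duodenum, jejunum and ileum. *Cx3cl1* (chr8:94772009-94782427, plus strand) was at 35.6, 28.7 and 33.5 CPM in positive and 6.73, 4.73 and 7.71 CPM in negative cells of the duodenum. Jejunal values were 36.1, 62.8 and 49.95 against 10.9, 17.0 and 12.3 CPM, and ileal values 37.3, 49.1 and 50.02 against 9.82, 12.2 and 7.70 CPM. In the colon positive libraries held 21.1, 28.5 and 16.8 CPM and negative ones 13.9, 6.96 and 9.78 CPM. Every positive library lay above every negative library of its region. The log2 fold changes were 2.35, 1.89, 2.19 and 1.12 from duodenum to colon (standard errors 0.31, 0.30, 0.30 and 0.30, adjusted p = 2.31e-06, 9.80e-06, 1.91e-06 and 0.0115, edgeR). The colonic call was lost without positive replicate 2 (0.86) or negative replicate 2 (0.85), with the compared libraries alone (1.001, adjusted p = 0.0620) and with scaling by library size (1.002, adjusted p = 0.0600, edgeR). The contrast of small intestine with colon gave 1.02, which missed the threshold (adjusted p = 0.0857, edgeR), and passed by DESeq2 (1.18, adjusted p = 0.0216), with protein-coding genes alone (1.16) and without colonic negative replicate 2 (1.35).

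*Cxcl16* (chr11:70453983-70459984, minus strand) was at 21.5, 14.7 and 25.1 CPM in positive and 1.75, 2.33 and 6.06 CPM in negative cells of the duodenum. The jejunum held 26.5, 28.8 and 26.7 against 2.43, 5.92 and 5.50 CPM, and the ileum 9.42, 15.7 and 22.3 against 1.57, 1.62 and 4.82 CPM. None of these groups overlapped, and the fold changes were close to 6-fold in all 3 regions (log2 fold changes 2.59, 2.56 and 2.58, largest adjusted p 0.00124, edgeR). In the colon the gene was scarce, with 4.56, 2.41 and 6.07 CPM against 0.240, 2.78 and 2.04 CPM, and the groups overlapped. The log2 fold change there, 1.30, did not pass (adjusted p = 0.128, edgeR), with an approximate 95% interval of 0.20 to 2.40, and it passed with no filter on low counts and with the i5 index as covariate (adjusted p = 0.0466 and 0.0448). The gene shares 552 exon bases, 18.3% of its exon length, with *Zmynd15* on the opposite strand, whose total of 145 counts over all libraries is small. Over the 24 libraries r between *Cxcl16* and *Cx3cl1* was 0.75, and the genes most like them were *Rab5c* (r = 0.93) and *Cab39* (r = 0.96).

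*Ccl25*, the ligand of CCR9 and the signal that brings T cells and plasma cells to the small bowel, was the most abundant of the 10 genes per kilobase in negative cells of the duodenum, jejunum and ileum. The duodenal positive libraries held 94.1, 122 and 118 CPM and the negative ones 301, 428 and 411 CPM, without overlap. The level was thus 3.41-fold lower in positive cells (log2 fold change −1.77, SE 0.28, adjusted p = 5.03e-05, edgeR). Jejunal positive libraries held 201, 208 and 339 CPM and overlapped the negative ones at 442, 289 and 495 CPM. In the ileum the order was turned, with 288, 239 and 283 CPM in positive and 145, 129 and 214 CPM in negative libraries. The colon held little in either fraction, 9.81, 8.35 and 8.20 CPM against 8.15, 9.08 and 8.76 CPM, and its groups overlapped (log2 fold change 0.02, approximate 95% interval −0.55 to 0.59).

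The log2 fold changes of *Ccl25* in the jejunum and ileum were −0.71 and 0.73 (adjusted p = 0.0372 and 0.0377, edgeR). Both calls were weak. The jejunal one was lost without positive replicate 1 or 2 or negative replicate 1 or 3 (−0.58, −0.51, −0.58 and −0.55), and the ileal one without positive replicate 1, 2 or 3 or negative replicate 1 or 2 (0.68, 0.80, 0.69, 0.65 and 0.58). Of the 8 other ways of processing, 5 ended the jejunal and 4 the ileal call. The duodenum differed from the mean of jejunum and ileum by −1.78 (standard error 0.34, adjusted p = 0.000516, edgeR interaction contrast). A contrast of ileum with jejunum, added after the data had been seen, gave 1.44 (standard error 0.39, adjusted p = 0.124, edgeR) and passed by DESeq2 (1.36, adjusted p = 0.0163) and without jejunal positive replicate 3 (1.72, adjusted p = 0.0240).

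Along the gut, *Ccl25* fell by 4.94 (log2) from ileum to colon in positive cells (adjusted p = 5.31e-12, edgeR) and by 4.23 in negative cells (adjusted p = 2.09e-10, edgeR). Within the small intestine it rose from duodenum to jejunum in positive cells (1.16, adjusted p = 0.00182) and fell from jejunum to ileum in negative cells (−1.33, adjusted p = 0.00508, edgeR). The latter call was lost without ileal negative replicate 1 (−1.25) or 2 (−1.18), with the compared libraries alone (−1.29, adjusted p = 0.128) and with scaling by library size alone (−0.75, adjusted p = 0.156). The gene (chr8:4325210-4360020, plus strand) shares 204 exon bases, 2.7% of its exon length, with *Elavl1* on the opposite strand. *Elavl1* had 10598 counts in total, whereas *Ccl25* had 118 to 127 in a positive and 68 to 124 in a negative library of the colon. The effect of this overlap was not tested. *Ccl25* has 2 promoter windows, 1 of which is shown because it held the gene's only match to the letters searched. The window of the first start has 74.0% G and C and that of the second 51.7%. The second holds the letters of a CDX homeobox factor motif, TTTATG, on the minus strand. It is shown in capitals as it reads on the plus strand, where its first base lies at −192 from the start, within chr8:4349384-4349413.
Ccl25: gaggcctggctgCATAAAgtgcctcaaggt
Of the 32851 RefSeq promoter windows of the same length, 11.9% hold these letters on either strand. Among the other members only the first window of *Il33* had them, at −218 and −179 counted in the same way, and no member window matched a kappaB motif (in 1.47% of all windows) or CAAAGNCCA (an HNF4 motif, in 1.98%), searched on both strands.

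**Figure D3:**
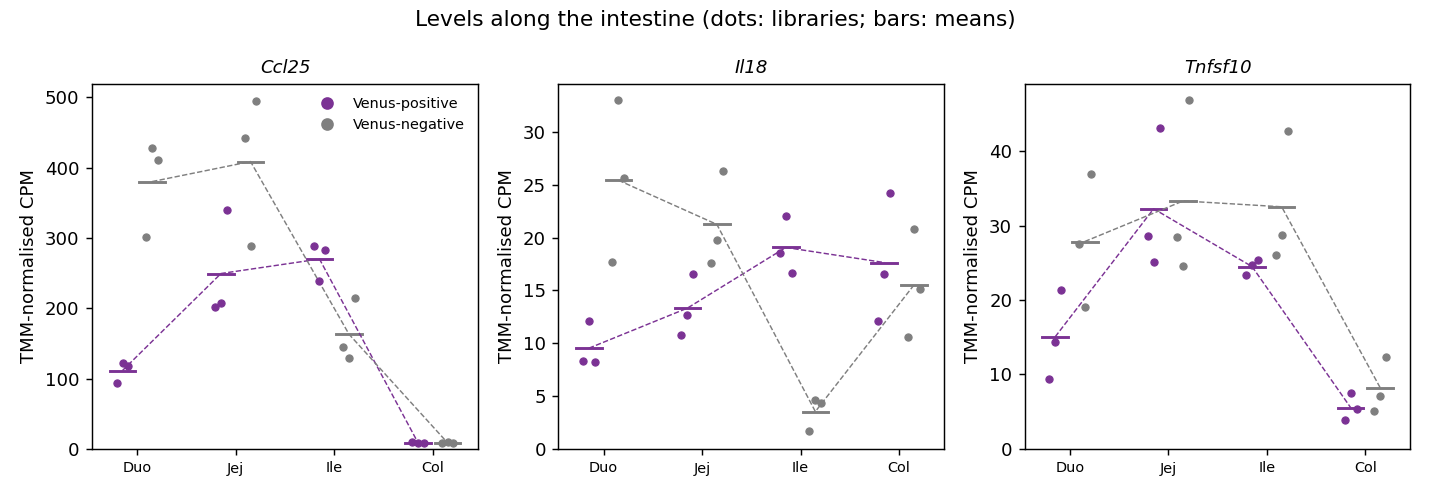
Each dot is 1 library, bars and dashed lines are means of 3, and the vertical axes are TMM-normalised CPM on linear scales from 0 for Ccl25, Il18 and Tnfsf10 (Duo, duodenum; Jej, jejunum; Ile, ileum; Col, colon; purple, Venus-positive; grey, Venus-negative). Il18 in negative cells drops to 1.65 to 4.62 CPM in the ileum, and Ccl25 falls below 10 CPM in the colon in both fractions.

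*Il18* encodes an inflammasome-dependent cytokine that acts on T and NK cells and that epithelial cells store as an inactive precursor. It changed sign along the small intestine. In the duodenum the positive libraries held 8.30, 12.1 and 8.22 CPM and the negative ones 17.7, 33.0 and 25.6 CPM, without overlap (log2 fold change −1.41, standard error 0.35, adjusted p = 0.00618, edgeR). Jejunal values were 10.7, 12.7 and 16.6 against 17.6, 19.8 and 26.3 CPM, again without overlap, but the log2 fold change of −0.68 did not pass (adjusted p = 0.113, edgeR), except with at least 10 counts in every library (−0.78, adjusted p = 0.0471). In the ileum *Il18* was at 18.5, 22.1 and 16.6 CPM in positive and only 1.65, 4.62 and 4.32 CPM in negative libraries, a 5.396-fold difference (log2 fold change 2.43, standard error 0.37, adjusted p = 5.98e-06, edgeR). The colon held 12.1, 16.6 and 24.2 against 10.5, 20.8 and 15.1 CPM and its groups overlapped (0.18, approximate 95% interval −0.49 to 0.86).

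Among negative cells *Il18* fell by 2.59 from jejunum to ileum (log2, adjusted p = 2.89e-05, edgeR), where 2.11% of all genes passed, and rose from ileum to colon by 2.14 (adjusted p = 0.000180, edgeR). In the former step 6 of 9 enterocyte markers fell as well (median −2.02), and their part in the falls of *Il18* and *Ccl25* was not tested. In positive cells no step between neighbouring regions passed for this gene (0.48, 0.52 and −0.11, smallest adjusted p 0.312, edgeR), although every ileal library lay above every jejunal one. The difference between fractions was lower in the duodenum than in jejunum and ileum by 2.29 (adjusted p = 0.000437, edgeR interaction contrast). The added contrast of ileum with jejunum gave 3.11 (standard error 0.50, adjusted p = 0.00308, edgeR). *Il18* was the only 1 of the 10 genes called in that contrast, which 0.266% of all genes passed. With scaling by library size alone the duodenal fold change of −0.95 no longer passed (adjusted p = 0.0693). *Il18* lies on chromosome 9 (chr9:50554827-50581840, plus strand), and *Bco2* and *Tex12* on the opposite strand overlap its span without shared exon bases.

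*Ccl28* (chr13:119623819-119654359, plus strand) encodes the mucosal ligand of CCR10, which attracts IgA plasma cells. All its positive libraries lay below the negative libraries of their region in all 4 regions. In the duodenum the values were 7.78, 14.0 and 16.3 CPM against 22.1, 16.9 and 31.3 CPM, and in the jejunum 0.895, 5.19 and 9.92 against 14.0, 19.9 and 33.0 CPM. The ileum held 9.47, 9.07 and 9.41 against 23.6, 20.6 and 33.6 CPM, and the colon 14.7, 15.9 and 19.3 against 39.9, 20.1 and 27.5 CPM. The negative groups ranged over similar values in every region. Jejunum and ileum passed, at −2.07 (SE 0.47, adjusted p = 0.000629) and −1.48 (SE 0.45, adjusted p = 0.0106, edgeR). Those of −0.88 in the duodenum (adjusted p = 0.181) and −0.81 in the colon (adjusted p = 0.254, edgeR) did not. The ileal call was lost without ileal negative replicate 3 (−1.25, adjusted p = 0.0504, edgeR). With a library left out, the jejunal value ranged from −2.86 to −1.57 and passed each time. Genes most like *Ccl28* over the 24 libraries were *Nolc1* (r = 0.94) and *Ifitm2* (r = 0.91).

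*Tnfsf10* (chr3:27317028-27342427, plus strand) did not differ between fractions beyond the threshold in any region. Duodenal positive libraries held 9.42, 14.4 and 21.4 CPM and negative ones 27.5, 19.1 and 37.0 CPM, with overlap (log2 fold change −0.89, adjusted p = 0.0785, edgeR). It passed there with at least 10 counts in every library (−0.90), with the i5 index as covariate (−0.90) and without duodenal positive replicate 3 (−1.23). The jejunum held 28.6, 25.2 and 43.1 against 28.5, 24.6 and 46.9 CPM, the ileum 23.4, 24.7 and 25.4 against 26.1, 28.8 and 42.7 CPM, and the colon 3.86, 7.50 and 5.29 against 5.15, 7.10 and 12.4 CPM. The colon was the low region in both fractions. From ileum to colon *Tnfsf10* fell by 2.14 in positive (adjusted p = 6.81e-05) and by 1.98 in negative cells (adjusted p = 0.000484, edgeR). Its pattern was the most like that of *Ccl25* among the members (r = 0.89), and over all genes *Otc* (r = 0.92), a urea cycle gene, was the nearest.

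*Il33* encodes an alarmin of the IL-1 family that signals through ST2 and is usually attributed to stromal and endothelial cells. It was scarce, with the highest counts in positive cells of the proximal gut. The duodenal positive libraries had 41, 12 and 43 counts (4.20, 0.985 and 4.84 CPM) and the negative ones 0, 8 and 5 counts. In the jejunum positive libraries had 82, 55 and 73 counts (5.24, 3.07 and 5.32 CPM) and negative ones 2, 27 and 33 counts, so that neither region's groups overlapped in CPM. The ileum had 5, 10 and 3 counts in positive and 8, 0 and 1 in negative libraries. Colonic libraries had 0, 0 and 3 counts in positive and 0, 1 and 16 in negative cells. The duodenal log2 fold change of 3.46 passed narrowly (SE 1.22, adjusted p = 0.0490, edgeR), and this call was lost without any 1 of the libraries other than positive replicate 2 (2.89 to 4.15, adjusted p between 0.0781 and 0.156). The jejunal value of 1.79 did not pass (adjusted p = 0.188, edgeR). The contrast of small intestine with colon, where counts were at or near 0, missed the threshold in edgeR (adjusted p = 0.0729) and passed by DESeq2 (0.0194), with no filter on low counts (0.00595) and without ileal negative replicate 1 (0.0399). Summed fibroblast and muscle markers were at 0 to 2.15 CPM in positive and 1.23 to 9.68 CPM in negative libraries of the duodenum, and at most 0.292 CPM in jejunal positive ones. Endothelial markers summed to 0.225 to 2.25 CPM in positive and 0.0721 to 0.772 CPM in negative libraries of the duodenum. Of the 2 endothelial markers tested, 1 was higher in positive cells there. The part of these markers in the *Il33* value was not tested.

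*Ccl20* (chr1:83116766-83119167, plus strand), the CCR6 ligand of follicle-associated epithelium, had at most 24 counts in a library and 0 counts in at least 1 library of every group. Positive libraries of the duodenum had 16, 0 and 10 counts and negative ones 0, 16 and 24. No difference between fractions was detectable at this depth (smallest adjusted p 0.459, edgeR).

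**Figure D4:**
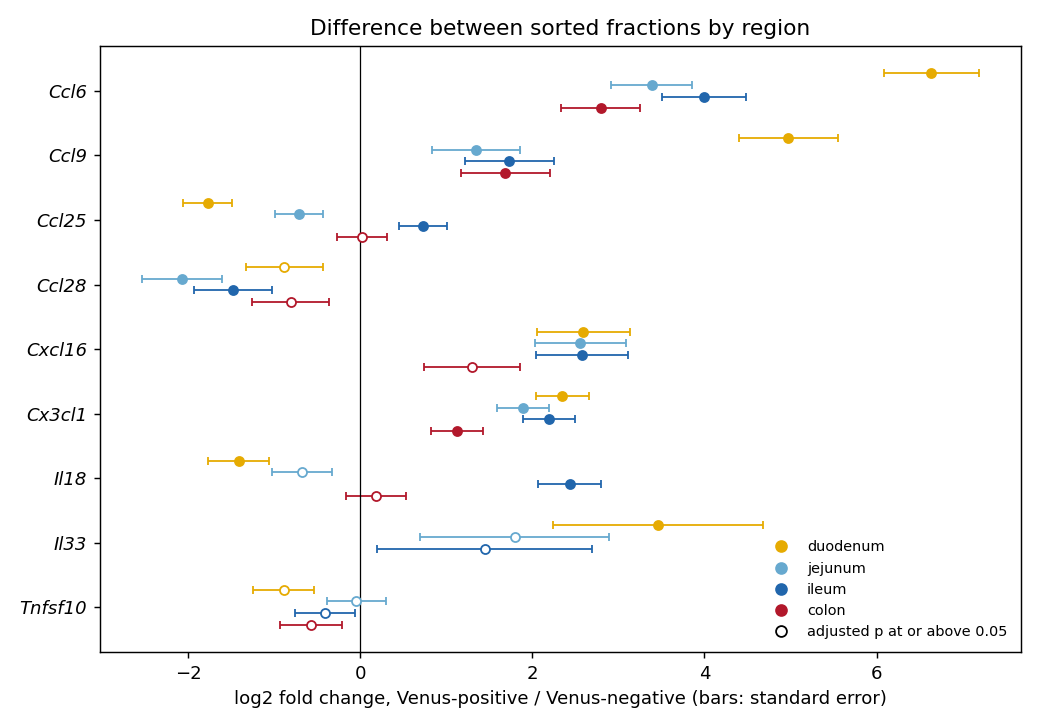
Points are log2 fold changes of Venus-positive over Venus-negative cells with standard errors, coloured by region, and filled where the adjusted p is below 0.05 (edgeR). Ccl20 in every region and Il33 in the colon are left out because their counts are near 0. Ccl6 and Ccl9 in the duodenum stand furthest to the right (6.64 and 4.97), and Ccl25 and Il18 are the genes with filled points on both sides of 0.

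Compared per kilobase of exon, positive cells of the duodenum held 775 ± 296 CPM of *Ccl6*, 51.3 ± 23.2 of *Ccl9*, 14.96 ± 2.03 of *Ccl25*, 9.24 ± 2.14 of *Il18*, 8.30 ± 0.913 of *Cx3cl1* and 6.76 ± 1.75 of *Cxcl16* (SD, n = 3). *Ccl6* alone made 88.8% of the summed level of the 10 genes there. The ranges of *Il18*, *Cx3cl1* and *Cxcl16* overlapped, so their order is not resolved. Negative cells of the duodenum held 51.0 ± 9.28 CPM per kilobase of *Ccl25*, 24.7 ± 7.43 of *Il18* and 7.78 ± 4.60 of *Ccl6*, with ranges that did not overlap, and *Ccl25* made 51.7% of the sum. In the jejunum *Ccl25* came first in negative cells (54.9) and second to *Ccl6* in positive cells (33.5 against 96.1), although the ranges of these 2 overlapped in the latter. In the ileum *Ccl6* (168), *Ccl25* (36.3) and *Il18* (18.5) led in positive cells without overlap, and *Ccl25* (21.9) and *Ccl6* (10.5) in negative cells. In the colon *Ccl6* and *Il18* led in both fractions, at 229 and 17.1 CPM per kilobase in positive and 33.1 and 15.03 in negative cells, again without overlap.

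Steps between neighbouring regions were then counted. In positive cells 5 genes changed from duodenum to jejunum (33.2% of all genes did). *Ccl6* fell by 3.01, *Ccl9* by 3.85 and *Ccl28* by 1.26, and *Ccl25* rose by 1.16 and *Tnfsf10* by 1.10 (adjusted p = 1.04e-05, 3.20e-06, 0.0364, 0.00182 and 0.0162, edgeR). In this step 8 of 8 goblet markers (median −3.63) and 5 of 7 Paneth markers fell and 9 of 9 enterocyte markers rose (median 3.06). Of the stem and proliferation markers 5 of 7 fell (median −2.56), and of the tested tuft cell markers 3 of 5 (median −2.38). The part of all these markers in the changes of the 5 genes was not tested. The call of *Ccl28* was lost without duodenal replicate 2 or 3 or jejunal replicate 1 or 2 (−1.17, −1.04, −0.75 and −1.26) and with the compared libraries alone (−1.24, adjusted p = 0.129), and that of *Tnfsf10* without duodenal replicate 1 or 2 or jejunal replicate 3 (0.86, 1.08 and 0.84) and with scaling by library size alone (0.96, adjusted p = 0.0700). From jejunum to ileum 0 of the 10 passed in edgeR (5.15% of all genes did), with 1 at an unadjusted p below 0.05 and 1 called by DESeq2, in both cases *Il33* (−3.61, adjusted p = 0.0824, edgeR), which also passed with no filter on low counts (adjusted p = 0.00864) and with the compared libraries alone (0.00468). Without jejunal positive replicate 3 *Ccl6* (1.49) and *Ccl28* (1.601) passed. From ileum to colon 4 fell (21.7% of all genes passed), namely *Ccl25* by 4.94, *Tnfsf10* by 2.14, *Cxcl16* by 1.86 and *Cx3cl1* by 1.04 (adjusted p = 5.31e-12, 6.81e-05, 0.0107 and 0.0109, edgeR), beside falls of 9 of 9 enterocyte markers (median −2.73) and 6 of 7 Paneth markers and a rise of 6 of 6 colonocyte markers (median 2.59), whose part was not tested. *Cxcl16* no longer passed without colonic replicate 2 (−1.55) or ileal replicate 3 (−1.53), nor *Cx3cl1* without colonic replicate 3 (−0.87). *Ccl28* rose by 0.83 without overlap, which did not pass (adjusted p = 0.195, edgeR) except with the compared libraries alone (0.81, adjusted p = 0.0183).

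Negative cells were compared in the same way. From duodenum to jejunum 0 of the 10 genes passed in edgeR (0.725% of all genes did), with 1 at an unadjusted p below 0.05 and 0 by DESeq2. From jejunum to ileum *Ccl25* and *Il18* fell as given above. From ileum to colon 4 genes passed (5.24% of all genes): *Il18* rose by 2.14 and *Ccl6* by 1.65 (adjusted p = 0.0225, edgeR), and *Ccl25* and *Tnfsf10* fell. The *Ccl6* call was lost without ileal replicate 1 or 2 or colonic replicate 2 or 3 (1.53, 1.63, 1.64 and 1.56) and with scaling by library size alone (1.19, adjusted p = 0.0710). In this step 5 of 8 goblet markers (median 2.17) and 4 of 6 colonocyte markers (median 1.76) rose, and 5 of 7 Paneth markers (median −3.00) and 5 of 9 enterocyte markers (median −1.47) fell. Their part in these changes was not tested.

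The machinery that matures or frees these cytokines was examined as a list of 18 genes, of which 15 were tested. In positive cells 1 was higher and 2 lower in the duodenum, 6 and 3 in the jejunum, 7 and 2 in those of the ileum, and 3 and 0 in the colon. As shares of all genes tested, 8.88% and 8.08%, 18.3% and 25.6%, 17.9% and 20.6%, and 9.31% and 3.8% were higher and lower in these regions. The list's median log2 fold change was 0.22, 0.37, 0.78 and 0.33 in that order, against −0.16, −0.28, −0.27 and 0.0 for all genes. *Gsdmd*, the pore former gasdermin D that lets IL-18 out, was at 173, 306 and 200 CPM in positive and 14.95, 43.8 and 20.5 CPM in negative cells of the jejunum. Its log2 fold changes were 0.77, 3.09, 3.26 and 1.41 from duodenum to colon, and the first did not pass (adjusted p = 0.123, edgeR). The inflammasome sensor *Nlrp1b* had 0.42, 2.01, 3.12 and 3.46, again called in all regions but the duodenum. The flagellin-responsive adaptor *Nlrc4* rose by 1.18, 1.11 and 1.49 in the small intestine and was at 0.51 in the colon, where it did not pass.

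*Pycard* (ASC), the adaptor that links sensors to caspase-1, went the other way. It was at 64.5, 103 and 91.4 CPM in positive and 282, 335 and 339 CPM in negative cells of the duodenum, with log2 fold changes of −1.88, −3.30 and −2.23 in the small intestine and −0.09 in the colon, which did not pass. *Casp1*, named for its role, fell in the jejunum (−0.95, adjusted p = 0.0119, edgeR) and was at −0.85, 0.13 and 0.29 in the other regions, where it did not pass. *Gsdmc2* fell in the jejunum and ileum (−4.83 and −2.13), but near-identical copies of this gene make its counts uncertain. The sheddases *Adam10* and *Adam17*, which cut CX3CL1 and CXCL16, had log2 fold changes of 0.13 to 0.78 and 0.24 to 0.64, and of these values that of *Adam10* in the ileum passed (0.78, adjusted p = 0.0273, edgeR).

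**Figure D5:**
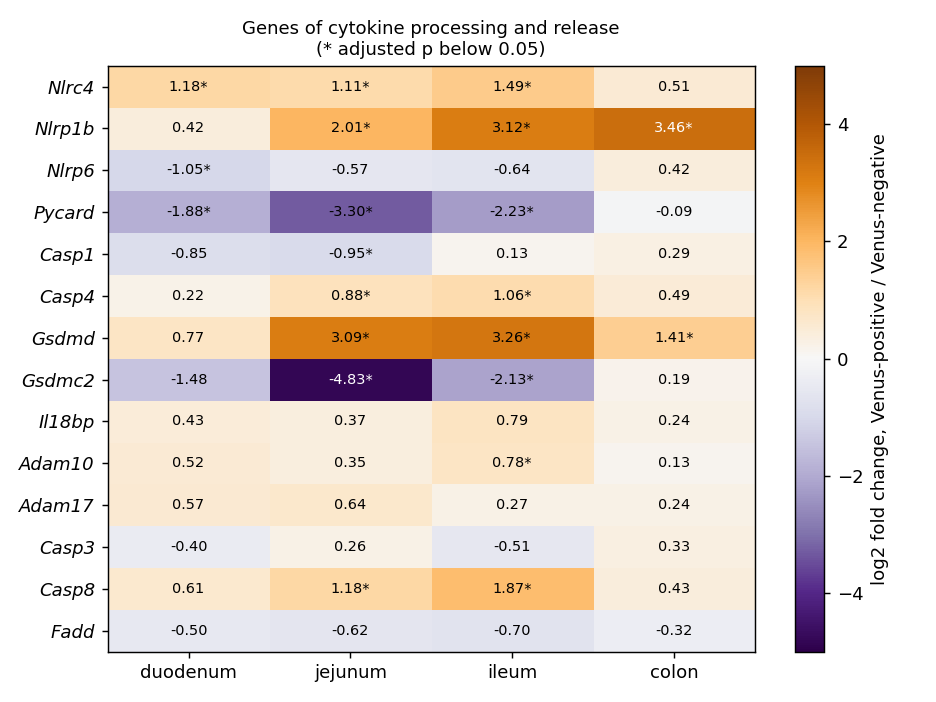
Rows are 14 of the tested genes of processing and release, columns the 4 regions, and colours and numbers the log2 fold change of Venus-positive over Venus-negative cells, with an asterisk where the adjusted p is below 0.05 (edgeR). Gsdmd and Nlrp1b are higher in positive cells of jejunum, ileum and colon, and Pycard is lower in those of duodenum, jejunum and ileum.

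Receptors for the 10 ligands were mostly near 0 in these cells. Of 13 receptor genes 4 passed the filter, too few to set against the shares of all genes, and the chemokine receptor genes *Ccr1*, *Ccr3*, *Ccr6*, *Ccr9*, *Ccr10*, *Cxcr6* and *Cx3cr1* had at most 27 counts in any library. *Tnfrsf11b* (osteoprotegerin, a decoy receptor for TRAIL) had 0, 0 and 1 counts in positive and 4, 17 and 14 in negative cells of the duodenum. It was lower in positive cells of the jejunum and ileum as well (log2 fold changes −3.53 and −3.26, adjusted p = 0.0046 and 0.00799, edgeR), with 1, 4 and 5 counts against 22, 54 and 42 in the jejunum. Among the counts given here, those of 10 or more all lay in negative libraries. The gene thus passed the filter mainly through the fraction where it is high. The death receptor gene *Tnfrsf10b* fell in the duodenum (−2.40, adjusted p = 0.0215, edgeR).

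Among 75 other chemokine and cytokine genes only 14 had enough counts to be tested. In the duodenum 0 passed in edgeR, 2 had an unadjusted p below 0.05 and 0 passed by DESeq2, and in positive cells 2 rose and 1 fell in each of the jejunum, ileum and colon, beside the shares of all genes given above for each region. *Il15*, the survival factor of intraepithelial lymphocytes, rose by 2.23, 1.98 and 2.20 in jejunum, ileum and colon, with 20.6, 12.0 and 8.24 CPM in positive and 4.10, 2.64 and 1.996 CPM in negative cells of the jejunum. *Mif* fell in the same regions (−3.51, −2.98 and −1.83), though processed copies of this gene make its counts uncertain. *Cxcl11*, an interferon-induced chemokine, had 22, 14 and 16 counts in positive and 0, 0 and 1 in negative cells of the ileum, and 4, 1 and 9 against 0, 0 and 0 in the colon, and was called in both. Its counts of 10 or more lay in positive libraries apart from 1 jejunal negative library with 16, so that it passed the filter mainly through the fraction where it is high. The remaining call in the jejunum was *Tnfsf13b* (BAFF, 2.13), which is named here because of its values. *Il25*, *Il1b* and *Ccl2* had 0 counts in all 24 libraries.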

How the data were processed

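Total RNA of sorted cells was made into stranded libraries (SMARTer Pico) and sequenced as 50-base single ends. Per the submitters' notes, the authors aligned reads to GRCm38 with STAR 2.5.1 and deposited raw counts per gene, with no normalisation. The annotation release and the strand setting are not given in the sources used here, so reads of overlapping genes may be shared. The 4 summary lines (unmapped, multimapping, ambiguous, no feature) stayed out of library sizes. Reads that map to several places, 16.7% to 31.8% of a library, were not counted on genes.

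Counts were fitted in R 4.3.3 with edgeR 4.0.16 (filterByExpr with minimum count 10 and minimum total 15, TMM, 1 coefficient per group over all 24 libraries, quasi-likelihood tests, Benjamini-Hochberg over 15044 genes, threshold 0.05), after a check on simulated data. Standard errors were back-calculated as the size of the log2 fold change divided by the square root of the quasi-likelihood F statistic. Intervals are estimates ± 1.96 of these standard errors and are therefore approximate. Likeness is Pearson's r of log2 CPM with a prior count of 2. Libraries of 1 group differed beyond counting error (chi-square per degree of freedom 26.5 to 177). Positions are from GENCODE M21, which holds 53360 of the genes. Alternatives were DESeq2 1.42.0, RLE factors, library size alone, no filter, 10 counts in every library, protein-coding genes, the i5 index as covariate, the compared libraries alone, and each library left out.

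The members, the lists and the tests were chosen with earlier results of these data known. Named beside the members were genes of the 3 lists called in at least 3 regions, and the 2 with the largest change in each direction. Of the genes this rule names, 1 is not reported here.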

Additional observations from a re-analysis of the deposited data

Results flagged for a closer look

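For 4 of the 10 genes the difference between Venus-positive and Venus-negative cells depended on the region, by edgeR's interaction contrasts, which 17.5% (duodenum), 4.13% (small intestine with colon) and 0.266% (ileum with jejunum) of all genes passed. *Ccl6* had a difference larger by 2.95 (log2) in the duodenum than in the mean of jejunum and ileum, and larger by 1.88 in the small intestine than in the colon, a call lost when any of 5 of the 6 colonic libraries was left out (adjusted p between 0.0576 and 0.0917). *Ccl9* exceeded in the duodenum by 3.43. For *Ccl25* and *Il18* the log2 fold change of positive over negative cells in the duodenum minus that in jejunum and ileum was −1.78 and −2.29. For *Il18* the ileum exceeded the jejunum by 3.11, in a contrast added after the data were seen. Adjusted p values lay between 0.000343 and 0.0304. In the contrast of small intestine with colon 1 of the 10 genes passed in edgeR and 3 by DESeq2, which added *Cx3cl1* and *Il33*.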

How the results depend on the processing

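No paired analysis was run, because the labels do not name the animal and replicate numbers were given in accession order. A fit blocked on that order was not tried, so its effect on the calls is not known. Libraries of the same number are not known to share an animal, so the following is a description only. Between them *Tnfsf10* in the duodenum and *Ccl25* in the jejunum were always lower in positive cells. Jejunal *Ccl9* was always higher, although the groups of all these genes overlapped. Over the 8 whole-table alternatives, 943 of 975 values of the members kept their side of the threshold, and 18 lost and 14 gained a call. Leaving out single libraries kept 1087 of 1140, with 47 lost and 6 gained. In both sets, 0 values that passed in either fit reversed direction. Values that passed in neither fit were counted as kept even where their sign changed. An example is *Ccl20* in the duodenum, at −0.01 in the main fit and 0.03 to 0.43 in the whole-table alternatives. The count of members called in the colon, 3, was 1 with the compared libraries alone. With a library left out it was 6 to 7 in the duodenum (7 with all), 4 to 5 in the jejunum (6), 5 to 6 in the ileum (7) and 1 to 3 in the colon, where it was 1 without positive replicate 2 and without negative replicate 2. Counts over interaction contrasts ranged from 4 to 6 (5 with all), over steps in positive cells from 7 to 10 (9) and in negative cells from 4 to 6 (6). The cause was not tested. Scaling by library size alone shifted the median log2 fold change of all genes by 0.45 in the duodenum and 0.33 in the jejunum and raised the share of higher calls from 52.4% to 86.6% and from 41.7% to 53.1%. DESeq2 moved that share in the colon from 71.0% to 57.4%. Depth limits *Ccl20* and *Il33*, which had 0 counts in some libraries.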
